A study of Homo sapiens with 16 samples.

Results

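In Toledo cells, 577 of 12970 merged H3K4me3 regions lay away from gene ends and had a peak in both vehicle (DMSO) libraries but in neither library of cells given a CARM1 inhibitor. Peaks of the 4 H3K4me3 lists were merged where they overlapped or touched, and away from gene ends means more than 2 kb from both ends of every protein-coding gene of the hg38 RefSeq table. These 577, called the lost regions below, were chosen by the presence and absence of H3K4me3 peaks, so their H3K4me3 values are a description with no test. Of 2163 regions away from gene ends with a peak in both DMSO lists, 26.7% met the rule, against 7.17% of 9199 regions at gene ends and 10.9% of all 11362. The reverse pattern, a peak in both inhibitor lists and neither DMSO list, was found at 10 regions away from gene ends.

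Toledo cells are an established line grown from a diffuse large B-cell lymphoma. Treatment lasted 6 days and used DMSO or TP-064 at 5 uM, which blocks CARM1, a protein arginine methyltransferase, and each treatment had 2 libraries for each of 3 histone marks. The study's title concerns CARM1 inhibition, histone acetyltransferase activity and lymphomas with CREBBP or EP300 mutations. The labels place every DMSO library on lane 3 and every inhibitor library on lane 4, and treatment cannot be told apart from lane. The B-cell identity of the samples was checked on gene-end H3K4me3: 7 of 8 B-cell markers, PAX5 and EBF1 among them, had a peak in all 4 lists, and CD22 had one in both DMSO lists only. None of 8 T and NK cell markers and none of 8 myeloid markers had a peak in any list. Of 8 epithelial and stromal markers, VIM had a peak in all 4 lists, COL1A1 in both DMSO lists only and 6 in none.

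H3K4me3 is placed by the SET1 and MLL methyltransferases around active and poised transcription start sites, where CpG-rich DNA is a common feature. Away from annotated gene ends it marks alternative starts, starts of non-coding RNAs, tRNA genes and some strong enhancers, while most enhancers carry H3K4me1 instead. H3K27ac, written by CREBBP and EP300, marks active promoters and enhancers. CARM1 methylates arginines of histone H3 and of coactivators, CREBBP and EP300 among them.

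The lost regions included annotated transcription starts, and 8 of these are printed because each is the start at which H3K4me3 was lost. POU2F2 (the octamer factor OCT2 of B cells), MX1 (an interferon-induced antiviral GTPase), PIK3CD (a catalytic subunit of phosphoinositide 3-kinase in lymphocytes) and DOCK8 (an exchange factor for CDC42) came from lists of B-cell identity, interferon response and lymphocyte signalling genes. MEF2D (a transcription factor of the MEF2 family) and PIDD1 (a death-domain protein induced by p53) held H3K27ac. LOC107985687 is a non-coding gene inside BCOR. RUNX3, a Runt-family transcription factor, was chosen after its values were seen. The RefSeq windows (GRCh38.p14) run 5′ to 3′ on the gene's strand from 250 bases before to 50 bases after the start. They lie at chr19:42132397-42132696 (POU2F2, minus strand), chr21:41425989-41426288 (MX1, plus), chr1:9689294-9689593 (PIK3CD, plus), chr9:272796-273095 (DOCK8, plus), chr1:24930227-24930526 (RUNX3, minus), chr1:156490638-156490937 (MEF2D, minus), chr11:805182-805481 (PIDD1, minus) and chrX:40106437-40106736 (LOC107985687, minus). Capitals mark a GC box (GGGCGG, or CCGCCC on the other strand), a CCAAT box (CCAAT or ATTGG) or an ETS site (CCGGAAG or CTTCCGG).
POU2F2: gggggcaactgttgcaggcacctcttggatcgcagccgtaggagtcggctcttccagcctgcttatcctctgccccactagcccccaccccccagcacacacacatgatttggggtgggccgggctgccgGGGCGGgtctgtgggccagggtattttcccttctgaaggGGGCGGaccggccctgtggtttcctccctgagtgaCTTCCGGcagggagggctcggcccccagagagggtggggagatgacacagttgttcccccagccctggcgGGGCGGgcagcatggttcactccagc
MX1: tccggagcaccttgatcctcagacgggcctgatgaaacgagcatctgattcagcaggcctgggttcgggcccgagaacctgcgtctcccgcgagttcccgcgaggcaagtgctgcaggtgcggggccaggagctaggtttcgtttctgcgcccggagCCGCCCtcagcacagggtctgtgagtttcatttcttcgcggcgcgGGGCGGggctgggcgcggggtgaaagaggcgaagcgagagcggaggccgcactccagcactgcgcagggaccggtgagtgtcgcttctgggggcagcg
PIK3CD: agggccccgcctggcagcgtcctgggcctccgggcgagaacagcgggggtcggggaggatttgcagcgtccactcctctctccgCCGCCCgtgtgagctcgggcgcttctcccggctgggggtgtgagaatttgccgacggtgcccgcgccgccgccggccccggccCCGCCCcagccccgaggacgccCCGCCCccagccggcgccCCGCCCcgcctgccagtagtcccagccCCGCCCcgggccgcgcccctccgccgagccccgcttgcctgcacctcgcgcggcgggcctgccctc
DOCK8: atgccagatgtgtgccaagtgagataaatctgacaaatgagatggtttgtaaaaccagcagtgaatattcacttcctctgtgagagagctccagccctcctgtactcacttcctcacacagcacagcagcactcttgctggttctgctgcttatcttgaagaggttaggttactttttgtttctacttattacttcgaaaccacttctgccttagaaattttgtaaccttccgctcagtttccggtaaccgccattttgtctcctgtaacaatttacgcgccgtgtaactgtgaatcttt
RUNX3: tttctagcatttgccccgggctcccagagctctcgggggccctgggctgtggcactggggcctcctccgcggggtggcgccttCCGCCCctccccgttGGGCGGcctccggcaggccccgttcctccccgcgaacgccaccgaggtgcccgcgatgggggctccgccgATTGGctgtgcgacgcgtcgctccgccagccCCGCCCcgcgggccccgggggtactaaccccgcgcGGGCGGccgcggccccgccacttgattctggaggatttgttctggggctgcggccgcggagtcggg
MEF2D: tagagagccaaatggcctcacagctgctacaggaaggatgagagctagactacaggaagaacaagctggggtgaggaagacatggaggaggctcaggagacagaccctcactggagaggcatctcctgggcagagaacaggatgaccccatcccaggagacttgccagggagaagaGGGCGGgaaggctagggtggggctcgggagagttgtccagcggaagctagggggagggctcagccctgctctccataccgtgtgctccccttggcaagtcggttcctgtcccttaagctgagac
PIDD1: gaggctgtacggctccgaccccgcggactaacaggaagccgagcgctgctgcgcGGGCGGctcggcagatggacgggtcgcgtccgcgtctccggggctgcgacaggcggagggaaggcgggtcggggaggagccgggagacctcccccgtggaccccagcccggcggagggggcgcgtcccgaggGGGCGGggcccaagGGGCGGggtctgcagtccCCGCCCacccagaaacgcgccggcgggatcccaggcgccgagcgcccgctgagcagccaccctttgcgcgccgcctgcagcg
LOC107985687: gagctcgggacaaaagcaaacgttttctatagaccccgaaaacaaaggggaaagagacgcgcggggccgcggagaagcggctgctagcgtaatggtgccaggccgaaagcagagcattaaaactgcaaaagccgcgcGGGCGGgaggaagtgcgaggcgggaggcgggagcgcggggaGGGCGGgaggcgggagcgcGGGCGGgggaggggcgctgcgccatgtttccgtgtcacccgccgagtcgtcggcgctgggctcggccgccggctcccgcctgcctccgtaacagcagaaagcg

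Of these windows, 7 held a GC box: 5 matches in PIK3CD, 4 in PIDD1, 4 in RUNX3, 3 in POU2F2, 3 in LOC107985687, 2 in MX1 and 1 in MEF2D. DOCK8 held no match to any motif searched, and RUNX3 was the window with a CCAAT box. The windows differed most in CpG content, measured as the CpG observed over expected ratio. LOC107985687 had a ratio of 1.18, PIDD1 0.935, MX1 0.91, RUNX3 0.879 and PIK3CD 0.855, whereas DOCK8 had 0.507, POU2F2 0.36 and MEF2D 0.197. Over all 93 protein-coding windows whose start lay in a lost region (92 genes), the median ratio was 0.702 and 66.7% of windows were above 0.6. The 588 windows in regions kept in all 4 lists away from gene ends had a median of 0.848, with 87.2% above 0.6, and all 22155 listed coding windows had 0.738, with 62.2% above 0.6. A GC box was present in 68.8% of the windows in lost regions, 75.2% of those in kept regions and 56.3% of all coding windows. The other motifs searched on both strands were the TATA box (TATAAA) in 4.3% against 9.47% of all coding windows, the CCAAT box in 29% against 34.6%, the ETS site in 9.68% against 12.8%, an interferon response element in 4.3% against 3.17% and the octamer (ATTTGCAT) in 3.23% against 1.66%. Overlapping matches count once per window.

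Starts of non-coding genes in lost regions were richer in CpG than non-coding starts in general. The 97 windows had a median GC content of 64.7% and a median CpG ratio of 0.734, against 50% and 0.286 for all 12836 listed non-coding windows. In kept regions the 303 non-coding windows had 65% and 0.832. Coding and non-coding starts in lost regions thus had lower median CpG ratios than those in kept regions. Windows of 1 gene can overlap, and these shares describe annotation without a test.

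In DMSO cells the lost regions carried narrow H3K4me3 peaks. The widest peak of a lost region measured 532 to 3843 bp in DMSO replicate 1 (median 1470) and 508 to 3486 bp in replicate 2 (median 1279). Kept regions away from gene ends, of which there were 1331, had medians of 2175 and 2007 bp. Among all peaks of its list the median lost peak ranked at width percentile 14.83 in replicate 1 and 8.41 in replicate 2, and 32.6% and 56.3% of the lost regions were in the lowest decile of width. The ranges of lost and kept regions overlapped in both libraries.

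**Figure D1:**
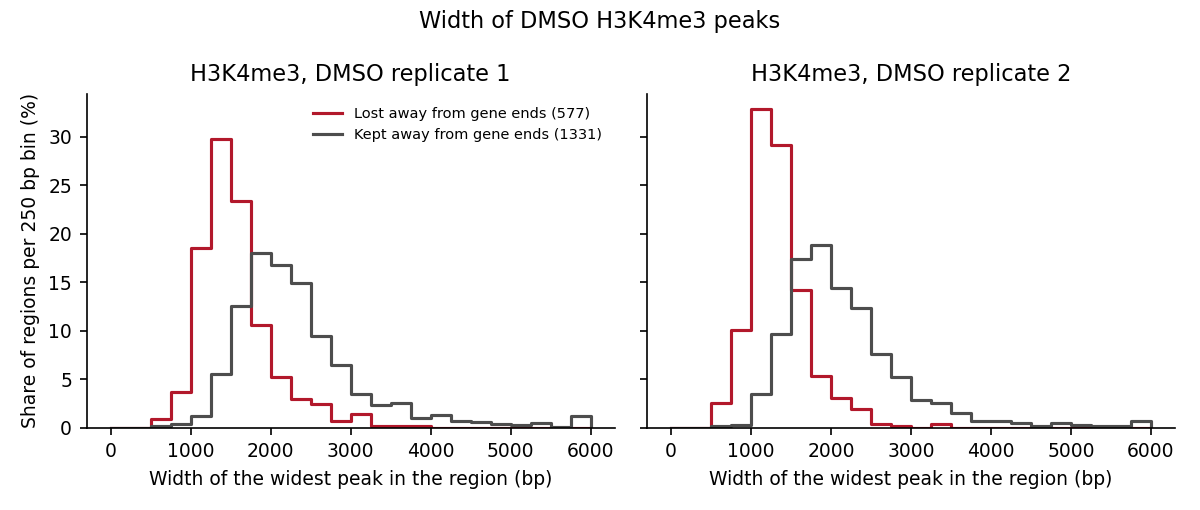
Share of lost (577, red) and kept (1331, grey) H3K4me3 regions away from gene ends in each 250 bp bin of the width of their widest peak (bp) in the 2 DMSO libraries. The highest bin also holds wider peaks, and the lost regions lie to the left with medians of 1470 and 1279 bp against 2175 and 2007 bp.

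Loss became rarer with width, and at every width it was more frequent away from gene ends than at them. All regions with both DMSO peaks were split into width quintiles by the lower of their percentiles in the DMSO lists. In the narrowest quintile 476 of 891 regions away from gene ends were lost (53.4%), against 36.2% at gene ends. The next quintiles gave 13.8% against 5.42%, 7.76% against 1.79%, 4.85% against 0.699% and, for the widest, 0.833% (2 of 240 regions) against 0.492%. The lists also shortened with treatment, from 12476 and 11481 H3K4me3 peaks in DMSO to 10317 and 10048 with the inhibitor, and the median width fell from 2166 and 2075 bp to 1899 and 1764 bp. With the 10048 widest peaks of each list, 153 regions met the rule, and 147 of those overlapped a lost region. This setting removes narrow peaks, mostly from the DMSO lists, and the lost regions had narrow DMSO peaks. The lower count and the overlap were therefore largely fixed by the setting. Whether depth or enrichment differed between the libraries was not tested, since the lists hold no reads.

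The 2 kb limit was not a gap in the data. The lost regions just outside it lay 2058 bp from ZNF839 (peaks of 1855 and 1787 bp in DMSO replicates 1 and 2), 2072 bp from an end of SMU1 (1128 and 1142 bp) and 2076 bp from ID2 (1886 and 1492 bp). Just inside it, and so not counted, were regions 1963 bp from MAGI2 (1747 and 1502 bp), 1963 bp from ZFP36L2 (1326 and 1163 bp) and 1958 bp from MDM4 (2082 and 2029 bp). The median distance to a gene end was 16522 bp, the farthest region lay 752731 bp away, and 213 regions (36.9%) were within 10 kb.

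By position, internal starts of coding genes made up a smaller share of the lost regions than of kept regions, and sites between coding genes a larger one. Inside a protein-coding gene lay 258 lost regions (44.7%), against 63.8% of kept regions. Chromosome 8 had no listed starts, which leaves 556 lost and 1281 kept regions for start classes. Over all chromosomes, starts were listed for 15812 of 19970 coding genes, so a region without a listed start may hold an unlisted one. A listed internal start of a protein-coding gene was held by 92 lost regions (16.5%) and 588 kept regions (45.9%). A further 198 lost regions (35.6%) held no listed coding start and lay within 2 kb of an end of a non-coding gene. Another 116 (20.9%) lay elsewhere in a coding gene and 150 (27%) lay elsewhere between coding genes. Part of that last class lay inside non-coding genes, more than 2 kb from their ends. In kept regions these classes made up 30.6%, 12.3% and 11.2%. No test is given, because regions are not replicates.

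Class and width overlapped, so the classes were also read within width. In the narrowest quintile the share lost was 46.0% of 163 regions at internal coding starts and 53.6% of 304 at ends of non-coding genes. It was 58.0% of 162 elsewhere in coding genes and 55.7% of 228 elsewhere between coding genes. In the other quintiles together it was 3.04% of 560, 9.36% of 374, 13.7% of 161 and 18% of 128. Internal coding starts had the lowest share in both width classes. In the central range of the lost regions' width rank (10th to 90th percentile, at width percentiles 1.38 to 29.5; its use for lost regions too was chosen after seeing the data), 143 of 429 kept regions (33.3%) and 76 of 445 lost regions (17.1%) held an internal coding start.

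**Figure D2:**
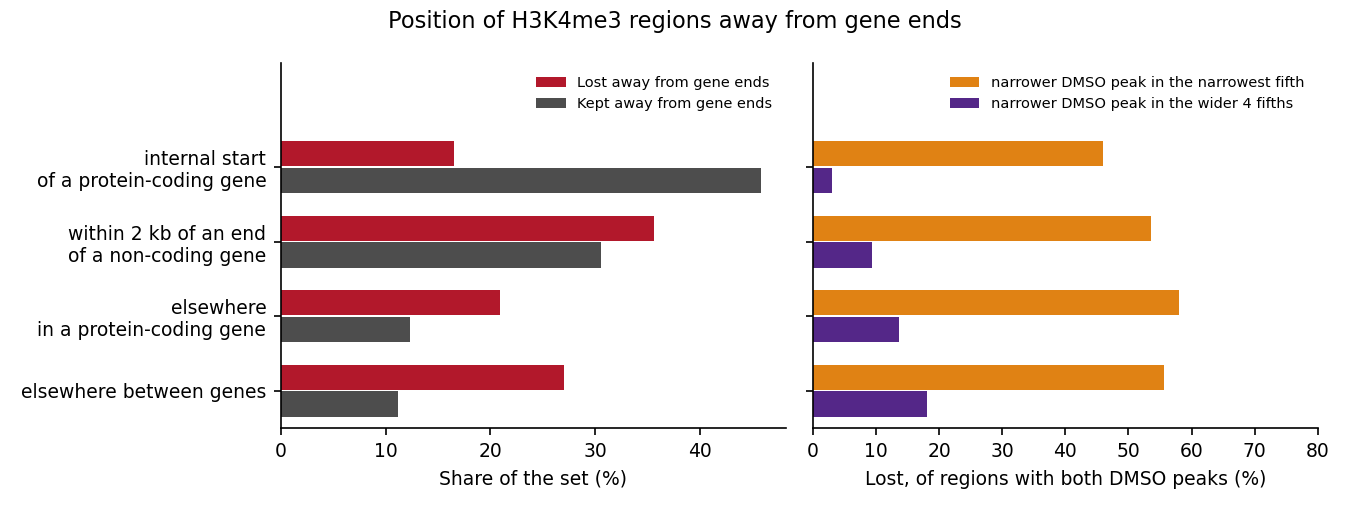
Left, share (%) of lost and kept H3K4me3 regions away from gene ends in each position class, without chromosome 8. The class elsewhere between genes means between protein-coding genes. Right, share lost (%) of regions with both DMSO peaks, split by whether the narrower DMSO peak was in the narrowest width quintile; internal coding starts have the lowest shares, 46.0% and 3.04%.

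Genes with an internal start in a lost region often kept H3K4me3 at their outer ends, or had none there in any list. Of 92 such genes, 36 (39.1%) had a peak within 2 kb of an end in all 4 lists, 45 (48.9%) had none in any list and 5 (5.43%) had peaks in both DMSO lists only. The 824 genes that contained a kept region anywhere split much alike, at 43.4%, 46.6% and 4.98%. Genes with an internal start in a kept region were not counted apart, so this split is not particular to lost regions. Among the genes with an internal start in a lost region, MEF2D, PIDD1 and DNMT3A had gene-end peaks in all 4 lists. DNMT3A, a de novo DNA methyltransferase, was named after its values were seen. RUNX3, POU2F2 and DOCK8 had no gene-end peak in any list, and MX1 had gene-end peaks in both DMSO lists only. Outer ends come from all transcripts of a gene together, so an internal start can be the one a cell uses.

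The MX1 region (chr21:41425534-41427189, inside MX1 and 4976 bp from its end) had H3K4me3 peaks of 1560 bp in DMSO replicate 1 and 1597 bp in replicate 2. Its H3K4me1 peaks measured 3634 and 2250 bp in DMSO, none was listed with the inhibitor, and H3K27ac had no peak in any library. The POU2F2 start region (chr19:42131504-42133255) had H3K4me3 peaks of 1432 and 1366 bp. H3K4me1 peaks of 8650 and 3089 bp in DMSO and 1290 bp in inhibitor replicate 2 overlapped it, and again H3K27ac was in no list. Another POU2F2 region (chr19:42176111-42177853) had H3K4me3 peaks of 1743 and 1472 bp and an H3K4me1 peak of 2368 bp in DMSO replicate 1 alone.

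Among kinase and exchange-factor genes, the PIK3CD start region (chr1:9688544-9689899) had H3K4me3 peaks of 1356 and 913 bp in DMSO replicates 1 and 2. Its H3K4me1 peaks were 4153 and 3419 bp in DMSO and 1529 bp in inhibitor replicate 2. The DOCK8 start region (chr9:272676-274056) had H3K4me3 peaks of 1381 and 1033 bp and no peak of the other marks in any library. RUNX3 (chr1:24928090-24930990) was wider in replicate 1, with H3K4me3 peaks of 2901 and 1716 bp, and had an H3K4me1 peak of 1504 bp in DMSO replicate 1 alone. At DNMT3A (chr2:25251175-25253122) the H3K4me3 peaks were 1859 and 1715 bp and the H3K4me1 peaks 2072 and 1085 bp, both in DMSO. None of these starts had H3K27ac in any list.

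On the 9 gene lists, with a region assigned to its nearest protein-coding gene, 20 lost regions had a listed gene. B-cell identity genes had 5 of the 12 regions with both DMSO peaks away from gene ends lost: 2 nearest to POU2F2, 2 to RUNX1 (a Runt-family factor) and 1 to TCF3 (the E-protein E2A). Germinal centre genes had 5 of 14 lost, 3 nearest to BCL6 (the transcriptional repressor of the germinal centre) and 2 to MEF2C (a MEF2-family factor). Lymphocyte signalling genes had 4 of 9 lost (PTPRC, ITPKB, DOCK8 and PIK3CD) and germinal centre exit genes 2 of 4 (CD83 and ZBTB20). NF-kB (BCL3) and cell cycle genes (CCND2) had 1 of 4 each, interferon response genes (MX1) 1 of 6, immediate early genes (ZFP36L1) 1 of 10 and chromatin regulators 0 of 4. These counts stand beside 26.7% of all such regions and are too few to set a list apart.

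The BCL6 regions inside the gene (chr3:187737626-187740352 and chr3:187740683-187742247) had H3K4me3 peaks of 2727 and 1674 bp, and of 1565 and 1456 bp, in DMSO replicates 1 and 2. Both had H3K4me1 in DMSO replicate 1 alone (1611 and 3013 bp) and no H3K27ac. They lay 2541 and 646 bp from a region kept in all 4 lists. The MEF2C region inside the gene (chr5:88888812-88890593) had H3K4me3 peaks of 1738 and 1581 bp and neither other mark in any list. The RUNX1 region inside the gene (chr21:35025864-35027705) had H3K4me3 peaks of 1842 and 1472 bp. It held H3K27ac of 1876 and 1563 bp in DMSO and 1679 bp in inhibitor replicate 2, with H3K4me1 of 5294 and 2805 bp in DMSO alone.

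BCOR, which encodes a corepressor that binds BCL6, was the gene with the most lost regions. It was nearest to 5, of which 4 lay inside the gene. The plot of peaks over BCOR shows 6 H3K4me3 peaks in each DMSO list and 2 in each inhibitor list over the gene and 15 kb to each side. The highest-ranked lost region there (chrX:40104282-40107078) holds the LOC107985687 start and had H3K4me3 peaks of 2797 bp in DMSO replicate 1 and 2422 bp in replicate 2. Its H3K27ac peaks were 2613 and 1984 bp in DMSO and 1066 bp in inhibitor replicate 1. H3K4me1 measured 4942 and 2722 bp in DMSO and was listed in neither inhibitor library.

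The next BCOR region (chrX:40108525-40110368) had H3K4me3 peaks of 1830 and 1801 bp, shared the same H3K4me1 peaks and had no H3K27ac. At the other regions inside BCOR, H3K27ac peaks of all 4 lists overlapped the region, although H3K4me3 was in the DMSO lists only. At chrX:40152590-40155823, H3K4me3 measured 3234 and 1705 bp in DMSO, and H3K27ac measured 3587 and 2435 bp in DMSO and 2342 and 2687 bp with the inhibitor. At chrX:40171291-40173115, H3K4me3 measured 1746 and 1657 bp in DMSO, and H3K27ac measured 5241 and 3691 bp in DMSO and 3984 and 4348 bp with the inhibitor. This region spans 120.04 to 121.87 kb from the BCOR end of lower coordinate. Its H3K27ac peaks ended at 121.59 kb in DMSO replicate 1, 120.15 kb in replicate 2, and 120.4 and 120.7 kb with the inhibitor. Outside DMSO replicate 1 they overlapped only an edge of the region, and most of their width lay beside it. The inhibitor widths of H3K27ac lay between the DMSO widths at the latter site. The region outside the gene, 436683 bp away (chrX:39613222-39614563), had H3K4me3 of 1342 and 1141 bp in DMSO, H3K4me1 of 1865 bp in DMSO replicate 1 alone and no H3K27ac.

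**Figure D3:**
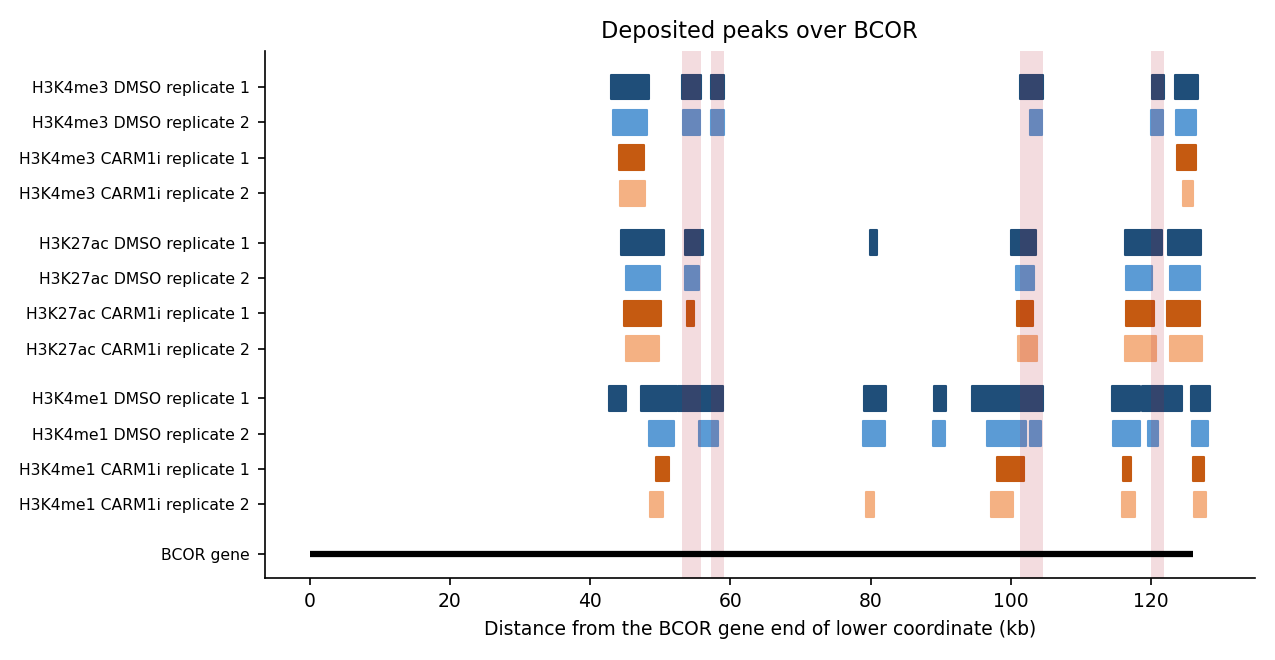
Deposited peaks of the 3 marks in the 12 libraries (rows) over the BCOR gene (black line), by distance (kb) from its end of lower coordinate; shaded bands are lost H3K4me3 regions. H3K4me3 has 6 peaks in each DMSO list and 2 in each inhibitor list, while H3K27ac bars persist over the band at 101.34 to 104.58 kb. At the band from 120.04 to 121.87 kb, the H3K27ac bars of DMSO replicate 2 and both inhibitor libraries reach only the edge.

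Over all lost regions, those at BCOR included, 74 of 577 lay within 50 kb of another, in 33 groups of at most 4. The same count was not made for kept regions, so closeness is not shown to be particular to the lost ones. ID3, an inhibitor of E-protein DNA binding, and GSE1 were each nearest to 3 and were named after their values were seen. The ID3 regions lay 2135, 8006 and 59306 bp from the gene, with H3K4me3 peaks of 1627 and 1341 bp, 1508 and 1472 bp, and 1323 and 1327 bp in DMSO replicates 1 and 2. H3K27ac at the nearest ID3 region was 2186 and 939 bp in DMSO and in neither inhibitor list, whereas the farthest had 2442 and 2075 bp in DMSO and 1711 bp in inhibitor replicate 1. The GSE1 regions had no H3K27ac in any list, and H3K4me1 was in both DMSO lists at each.

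Before the results on the other marks, the lists themselves differed in length. DMSO replicate 1 held 7885 H3K27ac and 25058 H3K4me1 peaks, and DMSO replicate 2 held 4016 and 9673. Inhibitor replicates 1 and 2 held 4771 and 4595 H3K27ac peaks and 4094 and 4242 H3K4me1 peaks. DMSO replicate 1 thus stood apart for both marks, and differences between treatments are given with and without it.

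H3K4me1 was the mark most often found at the lost regions, and it was listed at fewer of them with the inhibitor. A peak overlapped 327 of the 577 regions in DMSO replicate 1 (56.7%), 152 in replicate 2 (26.3%), 63 in inhibitor replicate 1 (10.9%) and 51 in replicate 2 (8.84%). Both inhibitor libraries were below both DMSO libraries. The means were 41.5% ± 21.4 in DMSO and 9.88% ± 1.5 with the inhibitor (SD, n = 2 each), a difference of -31.6 percentage points (two-sided exact permutation test over 6 assignments, p = 0.33, the smallest this design allows). Without DMSO replicate 1 the difference was -16.5 points, and with equal numbers of the widest peaks per list it was -7.45 points. In the equal lists the shares were 19.6%, 15.1%, 10.9% and 8.84%, in the same order of libraries.

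Kept regions away from gene ends went from 665 of 1331 regions and 13.3% in DMSO replicates 1 and 2 to 4.21% and 3.91% with the inhibitor. Their difference was -27.6 points (-9.24 without DMSO replicate 1), and the lost regions' difference minus this was -4.06 points (exact permutation p = 0.667, n = 2 each), which was within the spread between libraries. Without 1 DMSO library this value ranged from -7.22 (without replicate 1) to -0.888 (without replicate 2). For all 577 lost regions against the 445 kept regions of similar width it was -11 points (exact permutation p = 0.33), and -10.4 without DMSO replicate 1. Those kept regions held H3K4me1 at 37.1% and 7.87% in DMSO and at 1.8% in each inhibitor library. Their DMSO shares were lower than those of the lost regions, so they had fewer points to lose. At lost gene-end regions H3K4me1 overlapped 61.1% and 32.0% in DMSO and 11.5% and 9.24% with the inhibitor. The change at lost regions away from gene ends was smaller than there by 4.51 points (exact permutation p = 0.33; 5.13 without DMSO replicate 1).

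Of 151 lost regions with H3K4me1 in both DMSO lists, 82 (54.3%) had it in neither inhibitor list and 35 (23.2%) had it in all 4. Over all H3K4me1 regions with both DMSO peaks, 54.4% of 8113 were lost, and 54.2% of 5577 away from gene ends. The share at the lost H3K4me3 regions was near this background and below that of kept H3K4me3 regions away from gene ends. Of 171 such kept regions with H3K4me1 in both DMSO lists, 110 (64.3%) had it in neither inhibitor list and 26 (15.2%) in all 4. Another 168 lost regions had H3K4me1 in DMSO replicate 1 alone and 249 had it in no list. No lost region had H3K4me1 with the inhibitor and in neither DMSO list. Over H3K4me1 regions of any kind without DMSO peaks, 6.23% of 401 had it in both inhibitor lists; these are not H3K4me3 regions, so the shares have different denominators.

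In DMSO replicate 1, H3K4me1 lay over the middle of the lost regions and flanked the middle of kept regions. In that library an H3K4me1 peak covered the central base of 50.3% of lost regions, against 37.8% and 36.4% at 1000 bp to either side. In kept regions the centre was covered in 20.1% and both sides in 30.0%. DMSO replicate 2 covered 16.8% of lost centres (17.3% and 15.8% at the sides) and 4.13% of kept centres (6.54% and 7.06%), and at 2 kb it covered 9.36% and 4.96%. The inhibitor libraries covered 7.63% and 6.07% of lost centres and 1.5% and 0.751% of kept centres. In all 4 libraries a larger share of lost than of kept centres was covered. Within the central width range, 26.3%, 4.72%, 1.57% and 0.674% of kept centres were covered in DMSO replicates 1 and 2 and inhibitor replicates 1 and 2, against 49.9%, 15.8%, 7.16% and 5.86% of lost centres.

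**Figure D4:**
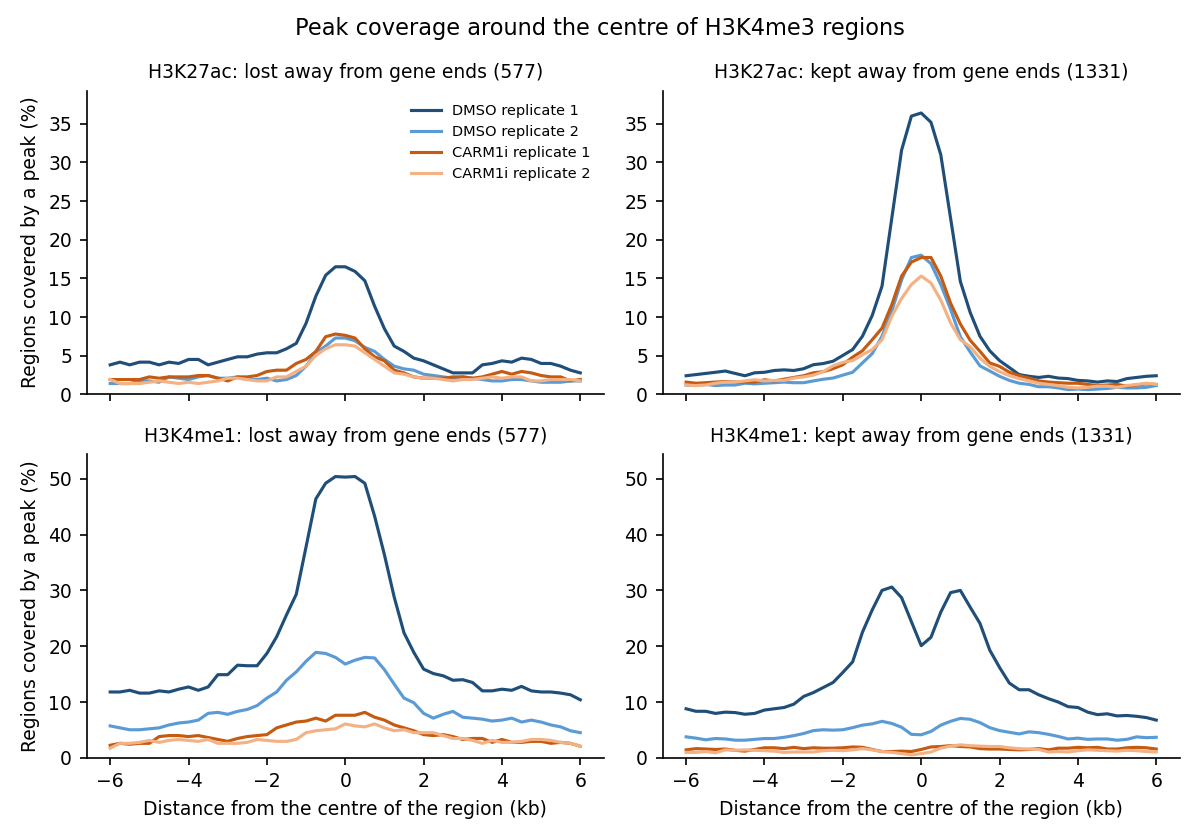
Share of regions (%) covered by an H3K27ac (top) or H3K4me1 (bottom) peak by distance (kb) from the centre of lost (left) and kept (right) H3K4me3 regions away from gene ends, with 1 line per library. H3K4me1 of DMSO replicate 1 is highest at the centre of lost regions (50.3%) and dips at the centre of kept regions (20.1%).

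H3K27ac was at a minority of the lost regions, and its shares in DMSO and inhibitor libraries overlapped. It overlapped 97 of 577 regions in DMSO replicate 1 (16.8%), 47 in replicate 2 (8.15%), 49 in inhibitor replicate 1 (8.49%) and 41 in replicate 2 (7.11%). DMSO replicate 2 lay between the inhibitor libraries. The means were 12.5% ± 6.1 in DMSO and 7.8% ± 0.98 with the inhibitor (SD, n = 2 each), a difference of -4.68 points (two-sided exact permutation p = 0.667). Without DMSO replicate 1 it was -0.347 points, and with equal numbers of the widest peaks -2.69 points.

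Kept regions had more H3K27ac in every library, at 38.2% and 20.1% in DMSO and 19.7% and 16.8% with the inhibitor, a difference of -10.9 points (exact permutation p = 0.33; -1.8 without DMSO replicate 1). The change at lost regions was 6.18 points less negative (exact permutation p = 0.33, n = 2 each), but 1.46 points without DMSO replicate 1. Lost regions had fewer points to lose, with a DMSO mean of 12.5% against 29.1% in kept regions. For all 577 lost regions against kept regions of similar width, the difference in change was -0.185 points (-0.571 without DMSO replicate 1). That comparison trimmed only the kept set by width. In those 445 kept regions H3K27ac overlapped 14.2%, 4.72%, 5.39% and 4.49%, and in the 461 lost regions of that width range 14.8%, 6.94%, 8.03% and 6.94%. Lost gene-end regions had 9.55%, 4.24%, 3.64% and 3.03%, lower than the lost regions away from gene ends in all 4 libraries. The change in H3K27ac differed between these lost sets by -1.12 points (exact permutation p = 1), and the sign turned to 0.562 points without DMSO replicate 1.

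**Figure D5:**
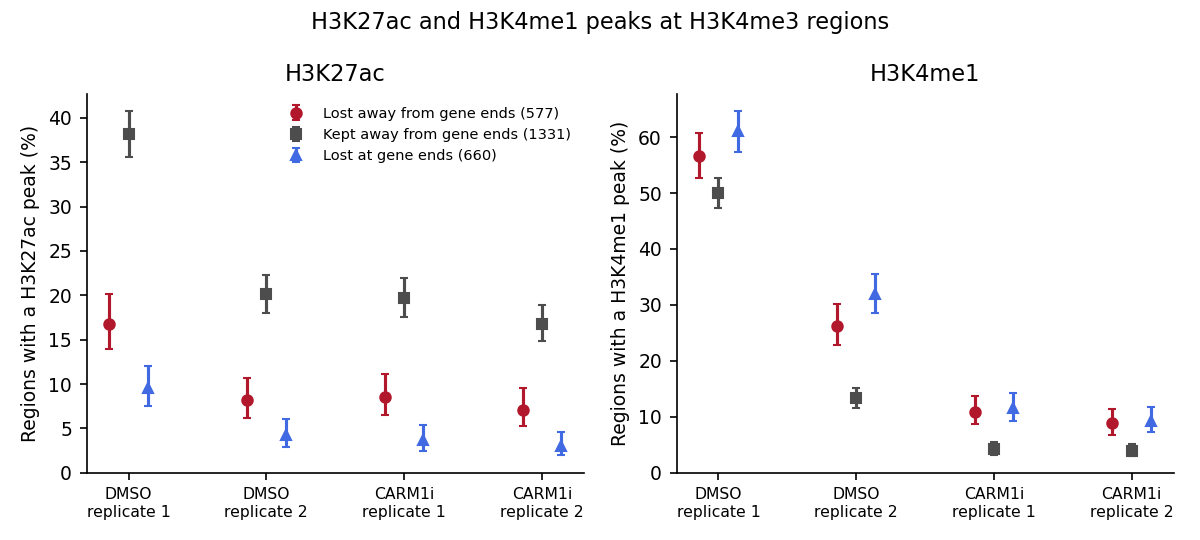
Share (%) of H3K4me3 regions overlapped by an H3K27ac (left) or H3K4me1 (right) peak in each library, for lost regions away from gene ends (577), kept regions away from gene ends (1331) and lost gene-end regions (660); bars are 95% Wilson intervals, which cover counting error only. Lost regions have 16.8%, 8.15%, 8.49% and 7.11% with H3K27ac and 56.7%, 26.3%, 10.9% and 8.84% with H3K4me1.

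Most lost regions, 475 of 577 (82.3%), had no H3K27ac in any list, and 242 (41.9%) had neither H3K27ac nor H3K4me1 in any list. Of 47 with H3K27ac in both DMSO lists, 14 (29.8%) had it in neither inhibitor list, against 24.5% of 3319 H3K27ac regions genome-wide and 19.2% of 1391 away from gene ends, and 25 (53.2%) had it in all 4. Kept regions gave 70 of 256 (27.3%) and 150 of 256 (58.6%). Loss of H3K4me3 and loss of H3K27ac therefore coincided at 14 regions, and H3K27ac was in all 4 lists at 25.

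Of regions that lost H3K4me3 and H3K27ac together, the highest-ranked lay inside VPS26C (chr21:37256683-37259334), with H3K4me3 of 2652 bp in DMSO replicate 1 and 2451 bp in replicate 2 and H3K27ac of 2663 and 1678 bp. The PIDD1 start (chr11:803475-805981) had H3K4me3 of 2507 and 1887 bp and H3K27ac of 1993 and 1418 bp in DMSO, while H3K4me1 stayed in all 4 lists at 4000, 3472, 1755 and 1433 bp. A region 43413 bp from MGAT5B, a glycosyltransferase gene (chr17:76993806-76996068), had H3K27ac of 6800 and 6040 bp in DMSO and H3K4me1 in all 4 lists. Near CALCOCO1 (chr12:53750600-53752845), over a listed start of the non-coding gene CISTR, H3K27ac measured 5052 and 3108 bp in DMSO and H3K4me1 9372, 6543, 2854 and 2142 bp. Others of this kind lay near C2orf42 at the LINC01816 start, near TMEM242, and inside CACNA2D4 and ST14. ZFP36L1, which encodes an mRNA-decay protein, had such a region 19491 bp away, with H3K27ac of 2562 and 1006 bp in DMSO.

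Where H3K27ac was in all 4 lists, it could be much wider than the lost H3K4me3 peak. The MEF2D start region (chr1:156489797-156493833) had H3K4me3 of 3843 bp in DMSO replicate 1 and 2123 bp in replicate 2. It was overlapped by H3K27ac peaks of 19227 and 17752 bp in DMSO and 17202 and 18066 bp with the inhibitor. The H3K27ac widths of the groups thus overlapped. H3K4me1 peaks at the MEF2D region were 19621 and 11841 bp in DMSO and 12094 and 5795 bp with the inhibitor. A region 18856 bp from IFNGR2, a subunit of the interferon gamma receptor (chr21:33382199-33384026), had H3K27ac of 4266 and 2880 bp in DMSO and 1892 and 1984 bp with the inhibitor, where both inhibitor peaks were narrower. At NOL4L (chr20:32535506-32537763), both H3K27ac (2358, 1365, 2245 and 3361 bp) and H3K4me1 (7878, 4274, 3818 and 3190 bp) were in all 4 lists. The others named by rank lay near EIF1, NLRP6, PTMA and TEX44 and at BCOR.

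H3K27ac in both inhibitor lists and neither DMSO list was found at 1 lost region, inside FOXN3, a forkhead repressor gene (chr14:89429811-89431376). Its H3K4me3 peaks were 1566 and 1299 bp in DMSO, and its H3K27ac peaks were 1671 bp in inhibitor replicate 1 and 2365 bp in replicate 2. Over all H3K27ac regions without DMSO peaks, which are another set of regions, 19.4% of 2012 had the mark in both inhibitor lists. Counting any inhibitor library, 5 lost regions had H3K27ac with the inhibitor only.

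The lost regions with the widest DMSO peaks were ranked by the lower of their width percentiles in the DMSO lists, and the top of this order was mixed. First came a region beside the valine tRNA gene TRV-AAC1-4 near TRIM41 (chr5:181215764-181219425), with H3K4me3 of 3662 bp in DMSO replicate 1 and 3486 bp in replicate 2. It had no H3K27ac and an H3K4me1 peak of 1322 bp in DMSO replicate 1 alone. Next was a region inside LHPP (chr10:124545461-124548604), with H3K4me3 of 3144 and 2889 bp and H3K4me1 in all 4 lists at 13142, 6175, 1359 and 2295 bp. The region at the start of LOC124903142 near FLT1, a VEGF receptor gene (chr13:28530571-28533473), had H3K4me3 of 2903 and 2498 bp and no H3K27ac.

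Further down the order, the DTX1 region (chr12:113076592-113079436), in a gene for a regulator of Notch signalling, had H3K4me3 of 2845 and 2354 bp. H3K27ac there measured 12513 and 3443 bp in DMSO and 1770 bp in inhibitor replicate 1, and H3K4me1 measured 23794 and 1259 bp in DMSO alone. A region 391876 bp from PTPRC, the gene of the phosphatase CD45, beside LINC02789 (chr1:199149352-199152756), had H3K4me3 of 3405 and 2344 bp, H3K27ac of 8314 and 2935 bp in DMSO and 2300 bp in inhibitor replicate 2. The RIPOR2 start region (chr6:24933101-24936373) had H3K4me3 of 3217 and 2405 bp and H3K27ac of 6528 bp in DMSO replicate 1 alone. Inside FADS2, a fatty acid desaturase gene (chr11:61826826-61829413), H3K4me3 measured 2532 and 2555 bp and H3K27ac 1631 bp in DMSO replicate 1 alone. Of the 10 highest-ranked, the one not described elsewhere lay 108093 bp from KCNRG, without H3K27ac and 960 bp from a kept region.

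H3K4me1 stayed in all 4 lists at 35 lost regions. Besides LHPP, MEF2D, MGAT5B and NOL4L, the highest-ranked were a start of CHLSN (chr7:1026829-1029018) and a site in PLEC, the gene of the cytolinker plectin. At CHLSN the H3K4me3 peaks were 2168 and 2026 bp in DMSO, and the H3K4me1 peaks were 9709 and 7269 bp in DMSO and 6384 and 4928 bp with the inhibitor. H3K4me1 at PLEC measured 4828 and 3747 bp in DMSO and 2939 and 2608 bp with the inhibitor. Neither had H3K27ac in any list, and at both sites each inhibitor peak was narrower than each DMSO peak.

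An end of a non-coding gene lay within 2 kb of 232 lost regions (40.2%), close to the 43.0% of kept regions. Long non-coding RNA genes accounted for 168 (29.1%), tRNA genes for 19 (3.29%) and miRNA genes for 12 (2.08%). Kept regions had 31.4%, 2.85% and 1.95%. For 3 of the miRNA genes, named after their values were seen, the mature sequence is printed with the seed (bases 2 to 8) in capitals, because the lost region holds or adjoins the hairpin. The genes are MIR210, known for its response to low oxygen, MIR152 and MIR193A, and the seeds of the printed arms all differ.
hsa-miR-210-3p: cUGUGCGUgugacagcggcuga
hsa-miR-152-3p: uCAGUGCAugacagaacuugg
hsa-miR-193a-3p: aACUGGCCuacaaagucccagu

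The MIR210 region (chr11:568687-569272) was 489 bp from the hairpin and among the narrowest lost regions, with H3K4me3 of 560 and 586 bp in DMSO replicates 1 and 2 and no other mark. The MIR152 hairpin lay inside its region (chr17:48036902-48038345), which also holds a start of COPZ2, a coatomer subunit gene, and had H3K4me3 of 1444 and 1103 bp. MIR193A lay 333 bp from a region (chr17:31558533-31559663) with H3K4me3 of 1050 and 984 bp. MIR152 and MIR193A regions each had H3K4me1 in DMSO replicate 1 alone (1438 and 1042 bp).

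The tRNA-gene regions had no H3K27ac, and H3K4me1 at part of them. No list had H3K27ac at any of the 19, and H3K4me1 was at 11 in DMSO replicate 1, 1 in replicate 2 and none with the inhibitor. Of 38 kept tRNA-gene regions, H3K27ac was at 11, 5, 5 and 4 in DMSO replicates 1 and 2 and inhibitor replicates 1 and 2. H3K4me1 was at 16, 2, 0 and 1 of them. Over all lost regions H3K27ac was at 16.8%, 8.15%, 8.49% and 7.11%, and 19 regions are too few to set the tRNA genes apart. H3K4me3 peaks of the 19 lost tRNA-gene regions ranged from 884 to 3662 bp in DMSO replicate 1 (median 1639). In replicate 2 they ranged from 734 to 3486 bp (median 1557). Of 61 regions with both DMSO peaks away from gene ends and a tRNA gene within 2 kb, 31.1% were lost, beside 26.7% of all. The highest-ranked after TRV-AAC1-4 adjoined TRA-TGC4-1 and TRD-GTC2-10 (chr12:124938064-124940707), with H3K4me3 of 2416 and 2285 bp. Among long non-coding RNA genes, the LINC01415 start near TCF4, an E-protein gene (chr18:55778595-55781117), had H3K4me3 of 2518 and 2294 bp and H3K4me1 of 2214 and 1232 bp in DMSO alone. A region at the end of P2RX5-TAX1BP3, inside the purinoceptor gene P2RX5 (chr17:3694230-3696817), had H3K4me3 of 2588 and 2336 bp and neither other mark.

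The distance to retained H3K4me3 varied widely. The nearest region kept in all 4 lists was a median of 43440 bp away, 60 lost regions (10.4%) had one within 5 kb and 307 (53.2%) within 50 kb. For lost gene-end regions the median was 32804 bp, with 11.7% within 5 kb and 62.1% within 50 kb. Of 245 protein-coding genes that contained a lost region, 104 (42.4%) had gene-end H3K4me3 in all 4 lists and 108 (44.1%) in none, against 43.4% and 46.6% of 824 genes that contained a kept region. H3K4me3 at the ends of the containing gene was thus much alike for lost and kept regions.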

How the data were processed

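H3K27ac, H3K4me1 and H3K4me3 ChIP-seq peaks of 12 libraries were used; the 4 input libraries were not used here. The authors deposited 1 list of peak positions (bp) per library, with no score or reads, so depth is unknown. Bowtie 1.1.2, MACS 1.4.2 and hg38 are named in the submitters' processing notes; for peak thresholds and the use of input, the sources used here give nothing. A site absent from a list may be below the caller's threshold.

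From these positions, regions, widths and overlaps (at least 1 bp) were computed with Python 3.11.15, pandas 2.3.3 and numpy 2.4.6, and binomial intervals with scipy 1.17.1. Genes were the 19970 protein-coding and 39124 other genes of the RefSeq GRCh38.p14 table on chromosomes 1 to 22 and X. Exons were not used, so intronic and exonic sites were not separated. Starts were the 34991 listed promoter windows, which cover 27196 genes, 15812 of them protein-coding.

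Shares were compared by two-sided exact permutation over libraries. Nothing in the labels says that libraries came from separate cultures, and p-values therefore reflect only how these samples spread, which may be technical. Regions, gene lists and named sites (the widest by rank in each pattern, and list genes) were chosen with earlier results of these data known. Code was tested on simulated lists. Alternatives covered distance, merging, gene set, overlap, list length, width range and left-out libraries.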

Additional observations from a re-analysis of the deposited data

How the results depend on the processing

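Among the settings tried, the highest and lowest numbers of lost regions came from changes to the lists. Leaving out 1 H3K4me3 library gave 604 to 1231 regions, the highest without DMSO replicate 2. Each omission takes a condition out of the rule and a larger distance tightens it, so the direction of these changes was set beforehand. A distance of 10 kb left 364, the ends of every RefSeq gene left 345, and the widest peaks of each list left 153. That last setting takes out narrow peaks, which the lost regions mostly had. Distances of 1 and 5 kb and merging gaps of 500 and 1000 bp kept the count within 1.5 times. With every RefSeq gene, 72.4% of lost regions lay inside a gene. An end of a non-coding gene lay within 1 kb of 35.7% and within 5 kb of 49.4%. Against kept regions of similar width, the difference in H3K27ac change reversed to -0.185 points; the cause was not tested. With equal list lengths, an alternative chosen after seeing the data, it was 0.695 points, and -4.37 points for H3K4me1. Leaving out 1 library gave share changes of -9.01 to -0.347 points for H3K27ac and -46.8 to -16.5 points for H3K4me1. With same-numbered libraries paired (replicate block), the values were -4.68 and -31.6 points for the shares (exact sign-flip p = 0.5 each) and 6.18 and -4.06 points for the differences (p = 0.5 and p = 1). These libraries share only a number: their deviations correlated at 0.18 for H3K27ac and -0.02 for H3K4me1 over the 577 regions. A score threshold could not be run, because the lists hold no score. Unknown depth limits every statement about an absent peak, and 2 libraries per group cannot give a p below 0.33.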

Other observations

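Developmental transcription factors and ligands formed a further group; their families (HOX, LHX, SOX, PAX, FOX, POU, WNT and others) were chosen after seeing the nearest genes, so the counts are a description, and both POU2F2 regions are counted here as well as under B-cell identity. Of 43 H3K4me3 regions with both DMSO peaks away from gene ends and such a gene nearest, 23 were lost (53.5%), against 26.7% of all. Their H3K4me3 peaks ranged from 796 to 2699 bp in DMSO replicate 1 (median 1578) and from 692 to 2139 bp in replicate 2 (median 1366). H3K27ac was at 1 of the 23 in DMSO replicate 1, 0 in replicate 2, and 2 and 1 with the inhibitor. H3K4me1 was at 12 and 4 in DMSO and 1 in each inhibitor library. The widest lay in HOXB3, a homeobox gene (chr17:48584394-48587092), with 2699 and 2139 bp of H3K4me3. In WNT10A, a Wnt ligand gene (chr2:218880115-218881692), the internal start lost H3K4me3 of 1578 and 1016 bp, and H3K4me1 measured 11103 and 8052 bp in DMSO and 2157 bp in inhibitor replicate 1.

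The share lost also varied by chromosome, from 17.7% of 79 regions on chromosome 16 to 47.8% of 23 on chromosome 21, with 41.9% of 74 on chromosome 15; these values were not tested.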
